A study of Mus musculus with 6 samples.

Results

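The cytosolic ribosome is built from ribosomal RNA and a set of proteins of a small and a large subunit, and the genes for these proteins are among the most steadily expressed of any cell. Their mRNAs begin with a run of pyrimidines, the 5′ terminal oligopyrimidine (5′TOP) motif, through which mTOR and the RNA-binding protein Larp1 set their translation, so that growth signals act on them mainly after transcription. A few members have paralogues, second genes for a related protein, such as Rpl22l1 beside Rpl22; Rpl22 binds RNA, is known to hold down Rpl22l1 transcripts, and can be replaced by Rpl22l1 in the ribosome.

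The members described here are the cytosolic ribosomal protein genes of a mouse hippocampal culture, chosen by symbol: Rpl or Rps followed by a number and an optional paralogue suffix, or Rpsa, Rplp0, Rplp1 and Rplp2, without pseudogenes and with a summed count of at least 100 over all libraries. Of 84 rows with such a symbol, 78 reached that sum, among 37411 gene rows in all; 31 belong to the small and 47 to the large subunit. The 6 rows below it were Rpl18 with a summed count of 0, Rpl10l with 1, Rpl39l with 5, Rpl6l with 29, Rpl3l with 42 and Rpl24 with 55. Rpl18 and Rpl24 encode core proteins of the large subunit that all cells use, so their counts are not read as expression levels; whether the authors' annotation or the handling of shared reads set them was not tested. No value lay near the limit, since the member with the lowest sum held 2003 counts and the one with the highest, Rpl4, held 74755. All 78 members passed the filter on low counts and entered the test.

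The libraries came from hippocampal neurons cultured from newborn (P0) pups of the outbred CD-1 IGS strain and taken at day 16 in vitro. The control cultures received dimethyl sulfoxide (DMSO, libraries 1, 2 and 3) and the treated ones an equal volume with 50 µM forskolin (libraries 4, 5 and 6), both for 30 min. Forskolin switches on adenylyl cyclase and so raises cyclic AMP, which acts on transcription largely through CREB and its DNA element, the CRE. The labels name no genotype, allele, sex or batch, and do not say whether the libraries of a group came from separate cultures or litters, so that every p-value measures only the spread between these libraries, which may be technical.

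Total RNA was sequenced to between 28342764 and 47548379 counts per library, and levels are given as CPM, counts relative to the TMM-scaled library size. All 14 neuronal markers were detected, with summed levels of 4383, 5152 and 5649 CPM with DMSO and 3336, 3602 and 5341 CPM in libraries 4, 5 and 6. Of these 14, 0 were called higher and 1 lower in edgeR's test (0.172% and 1.34% of all genes). Without library 6, 0 were called higher and 7 lower (16.5% and 17.1% of all genes). The part of neuronal content in the results below was not tested. The 12 astrocyte markers summed to 7356 to 9013 CPM. Summed CPM of the 12 microglia markers was 36.1, 26.0 and 23.7 with DMSO, 264 and 450 in forskolin libraries 4 and 5, and 26.2 in library 6. Library 6 thus stood near the DMSO libraries in these genes and apart from the other forskolin libraries. The mitochondrially encoded genes took 14.7, 24.6 and 20.9% of counts with DMSO and 30.5, 34.6 and 27.8% with forskolin. In bulk RNA, fewer cells of a type and less RNA per cell cannot be told apart.

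In edgeR's test with all libraries, Rpl22l1 was the only member whose transcript level changed past the threshold, and it rose. DMSO libraries 1, 2 and 3 held 162, 155 and 177 counts of it, and forskolin libraries 4, 5 and 6 held 874, 542 and 600. Its levels were 5.06, 5.09 and 4.97 CPM with DMSO and 18.6, 15.9 and 17.9 CPM with forskolin. The groups did not overlap, the DMSO libraries lay within a narrow band, and library 6 lay between libraries 4 and 5. At 155 to 177 counts, counting error alone would on average give a wider band, so its width does not measure how steady the gene is. The summed microglia markers beside these values were 264, 450 and 26.2 CPM in libraries 4, 5 and 6; their part in the result was not tested. The mean went from 5.04 ± 0.0636 (SD, n = 3) to 17.5 ± 1.38 CPM (SD, n = 3), a 3.47-fold increase. The log2 fold change was 1.79 ± 0.14 (SE), with an adjusted p of 0.0204 in edgeR's quasi-likelihood test with Benjamini-Hochberg adjustment over 16233 genes. Its p-value ranked 4 among all tested genes, and 82 genes whose mean count reached 200 had a higher log2 fold change.

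The background for this call was low: 0.172% of the tested genes were called higher and 1.34% lower at an adjusted p under 0.05, against 1 and 0 of the 78 members. Leaving out library 6 kept the Rpl22l1 log2 fold change at 1.76 and lowered its adjusted p to 0.00286, whereas without any other single library the log2 fold change was 1.75 to 1.89 and the adjusted p was 0.123 to 0.242, above the threshold. The call was also lost when each library's trend of level on GC content was removed: the log2 fold change was then 1.26 and the adjusted p 0.203, in a fit that called 0 of all genes and gave 1849 genes an unadjusted p under 0.05.

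Its partner Rpl22, the RNA-binding member itself, lay at 93.7, 111 and 101 CPM with DMSO and 94.7, 105 and 127 CPM with forskolin. Libraries 4 and 5 lay inside the DMSO range and library 6 above it. The log2 fold change was 0.10 ± 0.14 (SE; adjusted p = 0.715, edgeR). Rpl22l1 made up 5.12, 4.38 and 4.70% of the counts of the pair with DMSO and 16.4, 13.2 and 12.4% with forskolin, so the minor paralogue took a larger part of the pair in every treated library. On the log2 scale, with a prior count of 2, the ratio of Rpl22l1 to Rpl22 was -4.20, -4.43 and -4.33 with DMSO and -2.35, -2.71 and -2.82 with forskolin. The difference of 1.69 did not depend on library scaling; its exact two-sided permutation p was 0.1, the smallest that 20 regroupings of 3 against 3 allow, and 0.2 after adjustment over 4 pairs. With the GC trend removed, the difference was 1.21.

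Rpl22l1 lies on the plus strand at chr3:28805436-28807424 (GRCm38, GENCODE annotation), and its longest coding transcript has 4 exons. A noncoding gene on the other strand, Gm33051, overlaps the span of Rpl22l1 and held 0 counts in every library. A further gene, Gm32950, held 3, 1 and 2 counts with DMSO and 17, 11 and 2 with forskolin. Of the 50-base words of the Rpl22l1 coding transcripts, 58.9% also occurred in transcripts of 4 other genes, 3 of them pseudogenes, so that short reads could be shared with these copies. The share was 5.16% for Rpl22, and the longest run of bases that the 2 paralogues have in common was 26, so reads of 50 or more matched bases tell them apart. Per kilobase of transcript, the DMSO level of Rpl22l1 was 9.35 CPM, the lowest of the 78 members, against 49.7 for Rpl22.

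**Figure D1:**
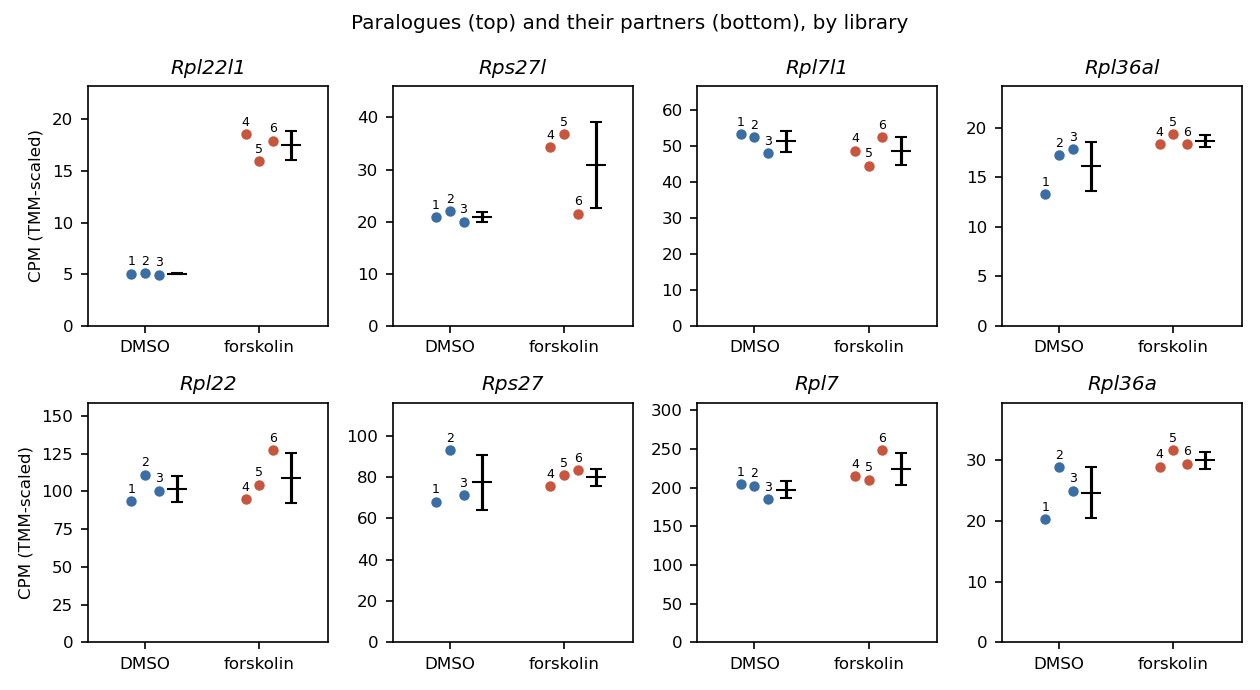
Levels of the paralogues (top row) and their partners (bottom row) in each library, in TMM-scaled CPM on axes that start at 0; points are libraries (numbers 1 to 3 DMSO, 4 to 6 forskolin) and bars are mean ± SD of 3. The mean of Rpl22l1 went from 5.04 to 17.5 CPM with all treated libraries above all controls, Rps27l was high in libraries 4 and 5 but not in 6, and the other genes had close or overlapping groups.

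The promoter window of Rpl22l1 is shown with that of its partner and of Rpl39 and Rpl23, the next highest in log2 fold change among members whose groups did not overlap, since forskolin acts through cyclic AMP and the full CRE (TGACGTCA) and its shorter form (TGACG, or CGTCA on the other strand) can be looked for directly. Sequences are from RefSeq on GRCm38.p6, 5′ to 3′ on the gene's strand, from 110 bases before to 15 bases after the annotated start; capitals mark CRE letters and the TATA element (TATAAA, or TTTATA on the other strand).
Rpl22l1, chr3:28805398-28805522, strand +: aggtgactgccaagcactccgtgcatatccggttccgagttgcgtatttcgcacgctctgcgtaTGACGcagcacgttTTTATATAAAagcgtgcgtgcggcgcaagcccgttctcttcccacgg
Rpl22, chr4:152325616-152325740, strand +: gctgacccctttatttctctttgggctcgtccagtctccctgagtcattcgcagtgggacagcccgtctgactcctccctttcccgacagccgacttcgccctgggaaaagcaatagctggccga
Rpl39, chrX:37085208-37085332, strand -: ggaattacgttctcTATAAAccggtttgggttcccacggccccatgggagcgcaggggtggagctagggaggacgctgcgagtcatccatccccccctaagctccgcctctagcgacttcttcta
Rpl23, chr11:97782425-97782549, strand -: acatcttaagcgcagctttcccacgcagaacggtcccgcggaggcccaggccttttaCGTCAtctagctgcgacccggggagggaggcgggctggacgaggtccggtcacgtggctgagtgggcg
The Rpl22l1 window held a short CRE whose first base lay at position -46 from the start and a TATA element in both orientations at -32 and -28, the matches overlapping each other. Rps27l, the third in log2 fold change but with overlapping groups, has its short CRE at -245, outside the length shown. Rpl23 held a short CRE at -53 and Rpl39 a TATA element at -96. The printed Rpl22 window held neither; its second start in the table has TTTATA at -177. The RefSeq start of Rpl22l1 is 72 bases inside the first GENCODE start, so its short CRE and TATA element lie within the GENCODE gene. The GENCODE gene of Rpl39 starts at 37085402 on the minus strand, before the RefSeq start at 37085222, and holds its TATA element too. Positions in these windows therefore depend on which start is used. A match is a description of the letters and was not tested for binding.

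Over the 58 members with an entry in the promoter table, searched on both strands over the 250 bases before any annotated start, 25 held a short CRE, which is 43.1% against 19.8% of 27025 genes. The median log2 fold change was -0.10 for the members with a short CRE and also -0.10 for those without one, so it did not separate members by their values. The full CRE, which contains the short CRE on each strand, was found in 4 members, Rpl13, Rpl27a, Rps9 and Rpl26, or 6.90% against 1.77% of all genes. These windows are shown because the median log2 fold change of the 4 carriers was -0.35, with Rpl26, whose match lies further upstream at -134, left out.
Rpl13, chr8:123102240-123102364, strand +: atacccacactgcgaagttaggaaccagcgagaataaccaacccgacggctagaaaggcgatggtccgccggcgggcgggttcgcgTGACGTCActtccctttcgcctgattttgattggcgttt
Rpl27a, chr7:109519085-109519209, strand +: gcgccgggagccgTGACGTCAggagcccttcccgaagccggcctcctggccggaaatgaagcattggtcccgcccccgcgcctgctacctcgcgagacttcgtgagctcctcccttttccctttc
Rps9, chr7:3703931-3704055, strand +: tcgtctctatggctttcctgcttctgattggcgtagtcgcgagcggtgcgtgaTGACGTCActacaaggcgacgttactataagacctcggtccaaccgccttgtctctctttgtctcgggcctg
The full CRE began at -24 in Rpl13, at -97 in Rpl27a and at -57 in Rps9, counted from the RefSeq start. The GENCODE genes of Rpl27a and Rps9 begin before that start, at 109519147 against 109519195 and at 3703993 against 3704041. Rpl26 held 51.9, 48.3 and 36.2 CPM with DMSO and 47.5, 40.4 and 53.6 CPM with forskolin, a log2 fold change of 0.05. With all libraries, edgeR called none of the 4 carriers of the full CRE, and DESeq2 called Rpl13 and Rpl27a lower. A TATA element was found in 4 members, Rpl22l1, Rpl39, Rpl22 and Rps2 (6.90%, against 14.3% of all genes). Their log2 fold changes were 1.79, 0.61, 0.10 and -0.45. A run of 8 or more C or T within 5 bases of the start, the letters of the 5′TOP motif, was found in 23 members (39.7%, against 11.4%), and the longest such run in the Rpl22l1 window had 10 bases.

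Among the members with positive changes, 3 followed Rpl22l1 at a distance. Rpl39, a small protein that lines the exit tunnel of the large subunit, lay at 17.9, 24.8 and 18.2 CPM with DMSO and at 29.6, 30.9 and 32.7 CPM with forskolin. The groups did not overlap, and library 6 was the highest. The log2 fold change was 0.61 ± 0.16 (SE), with an adjusted p of 0.113 in edgeR's test. Rpl23, which sits near the interface of the subunits, lay at 67.2, 77.2 and 69.4 CPM against 89.5, 103 and 91.5 CPM, again without overlap (log2 fold change 0.41 ± 0.11 SE, adjusted p = 0.126 in edgeR's test). Neither passed the threshold with all libraries; without library 6 both did, with adjusted p of 0.0429 for Rpl39 and 0.0285 for Rpl23.

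Rps27l, the paralogue of Rps27 and a known p53 target, behaved differently across the treated libraries. Its level was 20.9, 22.0 and 19.97 CPM with DMSO, 34.3 and 36.8 CPM in libraries 4 and 5, and 21.5 CPM in library 6. Library 6 thus lay inside the DMSO range, as it did for the summed microglia markers (26.2 CPM, against 264 and 450 CPM in libraries 4 and 5); of the 11 of these 12 markers that were tested, 10 were called higher without library 6; their part in the result was not tested. The log2 fold change was 0.56 ± 0.21 (SE; adjusted p = 0.188, edgeR) and became 0.75 with an adjusted p of 0.00478 without library 6, but 0.22 with an adjusted p of 0.617 with the GC trend removed. The 8 listed p53 targets had median log2 ratios to the DMSO mean of 0.55 and 0.52 in libraries 4 and 5 and -0.20 in library 6. They did not move as 1 group: Bax was lower in every treated library, and Sesn2 and Phlda3 had log2 fold changes of -0.27 and -0.0005. None of these 8 was called with all libraries; without library 6, 4 were called higher and 0 lower, where 16.5% and 17.1% of all genes were called.

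Rps27, the partner of Rps27l, held 68.2, 92.9 and 71.3 CPM with DMSO and 75.5, 81.0 and 83.5 CPM with forskolin, and the log2 ratio of Rps27l to Rps27 differed by 0.46 between the groups (exact two-sided permutation p = 0.3, adjusted 0.4), and by 0.17 with the GC trend removed. The ratio of Rpl7l1 to Rpl7 was -1.94, -1.95 and -1.94 with DMSO and -2.14, -2.24 and -2.24 with forskolin, a difference of -0.26 with the smallest exact permutation p of 0.1 (adjusted 0.2). That pair moved opposite to the Rpl22 pair: Rpl7l1 held 53.3, 52.5 and 48.1 CPM against 48.7, 44.5 and 52.4 CPM, and Rpl7 held 204, 202 and 185 CPM against 215, 210 and 248 CPM. Rpl36al, which encodes nearly the same protein as the X-linked Rpl36a, lay at 13.3, 17.2 and 17.8 CPM with DMSO and 18.4, 19.4 and 18.3 CPM with forskolin. Rpl36a itself went from 24.7 ± 4.28 to 30.0 ± 1.41 CPM (SD, n = 3 each), and the log2 ratio of the pair differed by -0.07 (exact permutation p = 0.5). A larger share of a paralogue with forskolin, in all libraries and without overlap, was therefore seen for Rpl22l1 alone among the 4 pairs.

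The 4 lowest log2 fold changes belonged to the large subunit, and 2 of them to the ribosomal stalk, which recruits the translation factors. Rplp1, an acidic stalk protein and per kilobase the most abundant member with DMSO (469 CPM), lay at 216, 264 and 221 CPM with DMSO and at 177, 113 and 91.8 CPM with forskolin. Rplp2, its dimer partner, lay at 95.6, 93.1 and 79.6 CPM and at 67.9, 60.5 and 29.4 CPM. For both, each treated library was below each DMSO library and library 6 was the lowest. The log2 fold changes were -0.88 ± 0.25 (SE; adjusted p = 0.134, edgeR) for Rplp1 and -0.76 ± 0.30 (SE; adjusted p = 0.199, edgeR) for Rplp2, so neither was called with all libraries. Without library 6, edgeR called both lower, with log2 fold changes of -0.70 (adjusted p = 0.0399) and -0.49 (adjusted p = 0.0217). Rplp0, the stalk base to which both dimers bind, lay at 285, 259 and 217 CPM against 209, 218 and 174 CPM, with a log2 fold change of -0.34 and groups that overlapped slightly. Removing the GC trend took it to -0.14, Rplp1 to -0.59 and Rplp2 to -0.60.

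Rpl36, a large-subunit protein, had the lowest log2 fold change of the members, but it also had a large spread. It lay at 60.7, 58.3 and 48.8 CPM with DMSO, at 42.4 and 34.1 CPM in libraries 4 and 5, and at 9.71 CPM in library 6. The log2 fold change of -0.96 ± 0.48 (SE; adjusted p = 0.282, edgeR) came to -0.56 without library 6, where its adjusted p was 0.0279, and to -0.50 with the GC trend removed. Of its 50-base words, 81.1% occurred in 12 other genes, all annotated as pseudogenes. Rpl36 also had the highest GC content of the members, 60.8%.

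Rpl13 and Rps15 lay lower in all treated libraries with less spread. Rpl13, a large-subunit protein, held 118, 113 and 84.7 CPM with DMSO and 68.7, 63.9 and 69.8 CPM with forskolin (log2 fold change -0.64 ± 0.15 SE, adjusted p = 0.0911 in edgeR's test). Rps15, which sits in the head of the small subunit near the decoding site, held 184, 210 and 169 CPM against 136, 144 and 121 CPM (log2 fold change -0.49 ± 0.13 SE, adjusted p = 0.122 in edgeR's test). The smallest adjusted p after Rpl22l1 was 0.0864, for Rpl27a, with 71.2, 78.5 and 69.3 CPM against 54.9, 53.9 and 47.4 CPM; Rpl27a falls outside the rule for named genes and was chosen after its values were seen. With all libraries these 3 genes were not called in edgeR's test, but DESeq2 called them lower, as did edgeR without library 6. Removing the GC trend took Rps15 to -0.0039 on the log2 scale (adjusted p = 0.988, edgeR), Rpl13 to -0.35 and Rpl27a to -0.56.

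**Figure D2:**
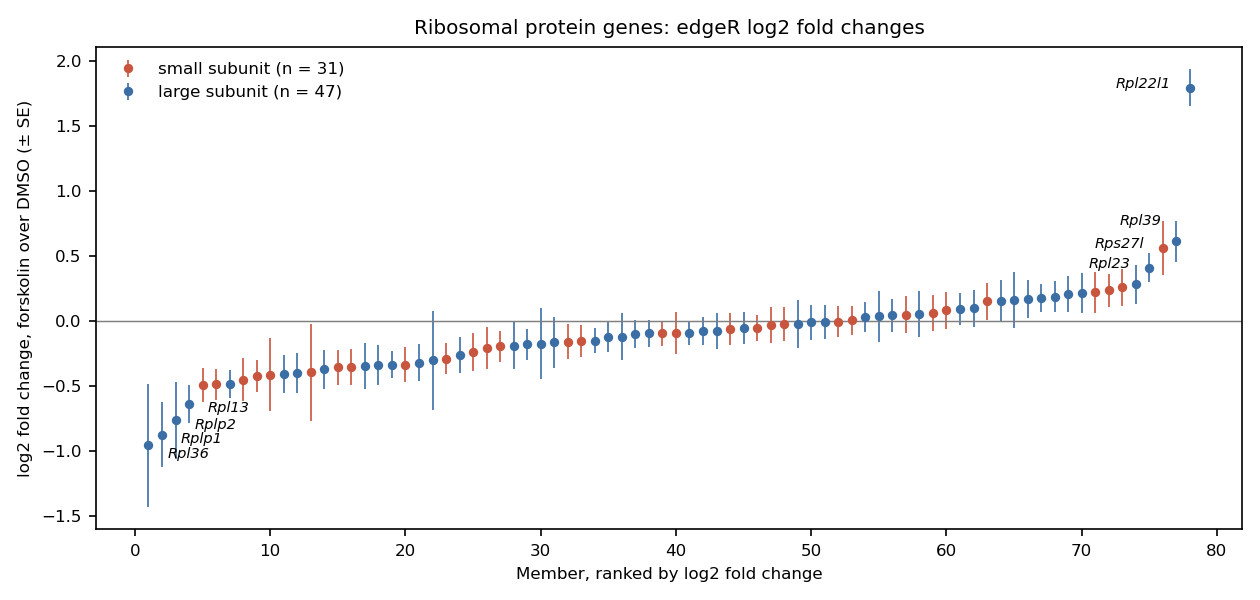
The log2 fold change (forskolin over DMSO, edgeR) of each of the 78 members, in order, with bars of 1 SE; colours mark the subunit. Rpl22l1 stands at 1.79, the next member at 0.61, most members lie within 0.5 of 0, and Rpl36 at the low end has the widest bar.

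Members with special roles were not called in edgeR's test with all libraries. Rps6, the substrate of S6 kinase, held 48.3, 51.9 and 47.3 CPM with DMSO and 43.5, 48.2 and 46.2 CPM with forskolin, overlapping groups with a log2 fold change of -0.10. Rpl5 and Rpl11, which bind Mdm2 when free of ribosomes and so link ribosome assembly to p53, had log2 fold changes of 0.17 and 0.03, with 41.6 to 47.4 and 54.8 to 68.6 CPM in the DMSO libraries. Rps27a, made as a fusion with ubiquitin, held 56.5, 59.2 and 54.9 CPM against 63.2, 59.9 and 77.5 CPM, which did not overlap (log2 fold change 0.23, adjusted p = 0.310 in edgeR's test). Rpsa, also known as the laminin receptor, held 243, 246 and 225 CPM against 164, 186 and 216 CPM, all lower with forskolin (log2 fold change -0.34, adjusted p = 0.214 in edgeR's test). Without library 6, Rpsa was called lower (log2 fold change -0.46, adjusted p = 0.0166 in edgeR's test), as it was with quality weights. Leaving out library 6 took Rps27a to 0.098. The X-linked Rps4x and Rpl10 had log2 fold changes of 0.06 and 0.09 with overlapping groups.

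The most abundant members in mean CPM were Rpl4, Rps2, Rps3, Rplp0 and Rpl8. Rpl4, which helps to form the exit tunnel, held 332, 360 and 351 CPM with DMSO and 326, 360 and 389 CPM with forskolin, with overlapping groups. Rps2 and Rps3, which line the entry path of mRNA into the small subunit, differed from each other: Rps2 held 362, 288 and 261 CPM against 199, 219 and 246 CPM with no overlap, and Rps3 held 280, 277 and 254 CPM against 225, 236 and 269 CPM, where library 6 overlapped the DMSO range. Rpl8, a protein near the peptidyl transferase centre, held 275, 258 and 216 CPM against 208, 199 and 160 CPM, with no overlap and a log2 fold change of -0.40. None of the 5 was called in edgeR's test with all libraries; without library 6 it called Rps2 lower (log2 fold change -0.55, adjusted p = 0.0363), and limma-voom with quality weights called Rps2 and Rpl8 lower. With the GC trend removed, Rps2 came to -0.21 and Rpl8 to -0.049. At the low end, Rpl13a, Rpl29 and Rpl34 held means of 10.1 ± 1.02, 10.9 ± 1.82 and 18.4 ± 4.19 CPM with DMSO (SD, n = 3 each) and log2 fold changes of -0.16, -0.19 and -0.02. Rps25 held 66.9 ± 11.2 and 80.1 ± 4.32 CPM (SD, n = 3 each), and Rpl3, which reaches into the peptidyl transferase centre, 164 ± 14.2 and 155 ± 20.3 CPM (SD, n = 3 each).

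**Figure D3:**
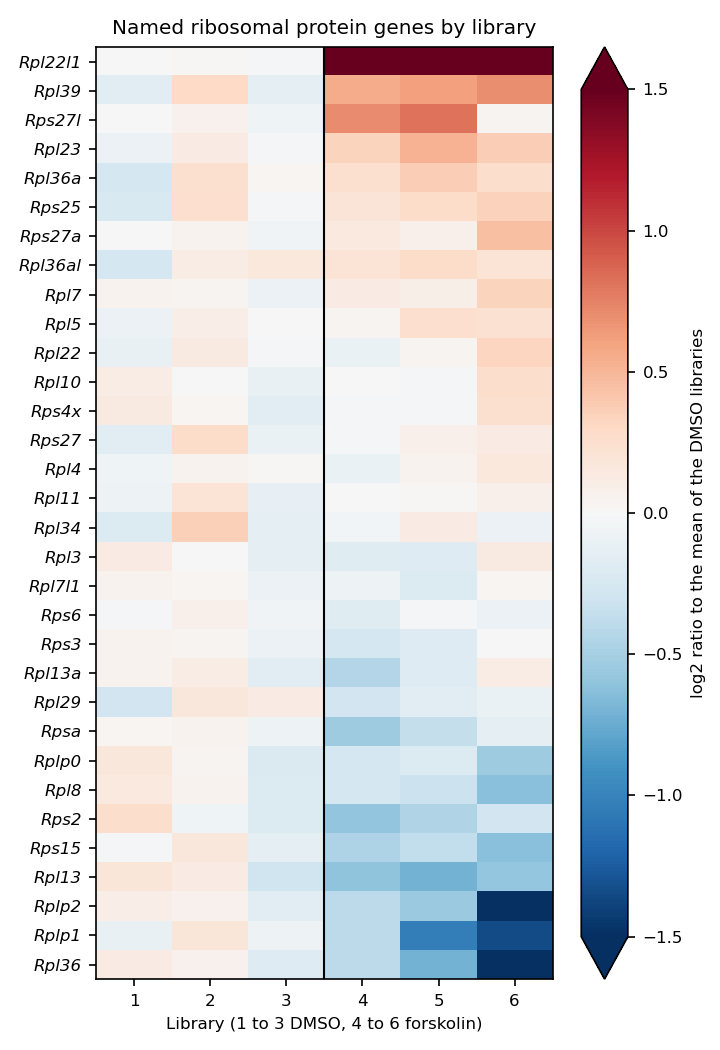
Log2 ratio of each named member to the mean of the DMSO libraries, by library (columns 1 to 3 DMSO, 4 to 6 forskolin), with colours limited to 1.5 in either direction. Rpl22l1 is red in all treated libraries, Rps27l in libraries 4 and 5 only, and Rpl36, Rplp1 and Rplp2 are darkest blue in library 6.

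As a group, the members had log2 fold changes close to 0. Of the 78, 26 were above 0 and 52 below, 71 lay between -0.5 and 0.5, 3 at 0.5 or more and 4 at -0.5 or less, and the interquartile range ran from -0.33 to 0.06. The median was -0.10, beside 0.02 over all 16233 tested genes. The subunits had close medians, -0.10 for the 31 small and -0.09 for the 47 large subunit members. The groups did not overlap, with forskolin higher, for 7 members or 8.97% (10.3% of all tested genes), and, with forskolin lower, for 17 members or 21.8% (16.2% of all tested genes). The 7 higher members were Rpl22l1, Rpl39, Rpl23, Rpl36a, Rps27a, Rpl36al and Rpl7. At an unadjusted p under 0.05 in edgeR's test, 4 of the 78 members were higher and 16 lower. Of all 16233 tested genes, 3619 had such a p in both directions together.

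The count of calls moved with the method and with library 6. DESeq2 called 3 members higher (Rpl22l1, Rpl23 and Rpl39; background 4.9% of genes) and 5 lower (Rpl13, Rpl27a, Rplp1, Rps10 and Rps15; background 6.03%). Limma-voom with library quality weights, which gave library 6 a weight of 0.156, called 4 members higher and 15 lower, where 21% and 20.9% of all genes were called. Without library 6, edgeR called 4 higher (Rpl22l1, Rpl23, Rpl39 and Rps27l; background 16.5%) and 12 lower (Rpl13, Rpl19, Rpl27a, Rpl35a, Rpl36, Rplp1, Rplp2, Rps10, Rps13, Rps15, Rps2 and Rpsa; background 17.1%). The share of members called lower was 15.4% without library 6 and 19.2% with the weights, both near the share of all genes, and the share called higher was 5.13% in both.

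By library, the median log2 ratio of the members to the DMSO mean was -0.02, 0.11 and -0.09 with DMSO, and -0.14, -0.07 and -0.07 in libraries 4, 5 and 6. The treated libraries thus lay inside or just below the range of the controls. In library 4, 12.8% of the members lay above all DMSO libraries and 48.7% below, beside 37.5% and 38.1% of all tested genes. In library 5 these shares were 14.1% and 34.6% of the members, beside 37.1% and 39.3% of all genes. In library 6 they were 29.5% and 44.9% of the members, beside 29.5% and 35.3% of all genes, so the members above the controls were fewer than among all genes in libraries 4 and 5 and as frequent in library 6; this difference was not tested. The median SD of log2 CPM over the libraries of a group was 0.16 with DMSO and 0.13 with forskolin. Members that separated library 6 from the other treated libraries included Rpl35a, with 14.8 and 14.96 CPM in libraries 4 and 5 and 36.6 CPM in library 6, and Rps26, with 55.9, 74.3 and 33.8 CPM in libraries 4, 5 and 6; both were chosen after their values were seen.

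**Figure D4:**
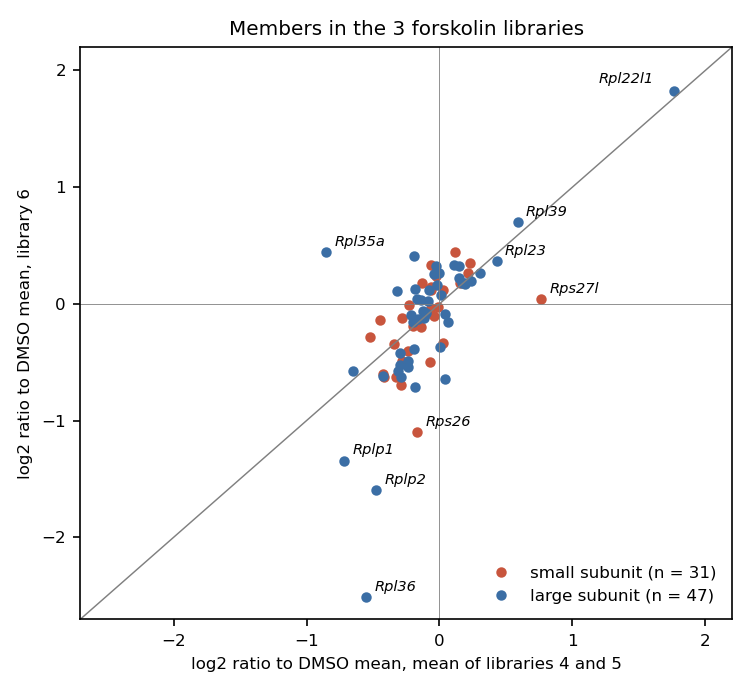
Log2 ratio of each of the 78 members to the DMSO mean in library 6 (vertical axis) against the mean of libraries 4 and 5 (horizontal axis), with the line of equal values. Rpl22l1, Rpl39 and Rpl23 lie near the line, Rps27l is raised only in libraries 4 and 5, and Rpl36, Rplp1 and Rplp2 are lowest in library 6.

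The members took 0.825, 0.757 and 0.679% of all counts with DMSO and 0.634, 0.610 and 0.652% with forskolin. The 95% Wilson intervals, which cover counting error only, were 0.822 to 0.828% for library 1 and 0.607 to 0.612% for library 5. The groups did not overlap, with means of 0.754 ± 0.0730% and 0.632 ± 0.0212% (SD, n = 3 each). With the mitochondrially encoded genes left out of the total, the shares were 0.967, 1.004 and 0.858% with DMSO and 0.912, 0.933 and 0.904% with forskolin, which overlapped. The difference in means was -0.12 percentage points with all genes in the total and -0.03 without the mitochondrial ones.

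Log2 fold changes of the members ran with the GC content of their coding transcripts. Across the 78 members, Spearman's correlation was -0.66 and Pearson's -0.68; without Rpl22l1 both were -0.64 (n = 77). Genes are not independent replicates, and the same relation was present over 15769 tested genes with a GC value (Spearman -0.53). Rpl22l1 had the lowest GC content of the members, 39.8%, in a range up to 60.8% with a median of 51.7% (50.6% over all tested genes). Rps20, the next lowest in GC after Rpl22l1, was chosen after its values were seen. Its GC content was 41.3% and its log2 fold change -0.01, while Rps27l, the next after it at 43.1%, stood at 0.56. The GC content of Rps20 is that of a long annotated model, with a median transcript length of 3706 bases against 538.5 for Rpl22l1. It may therefore differ from the GC content of the mRNA in these cells, which was not tested. Transcript length showed no such relation (Spearman 0.01), nor did the share of words in common with other genes (-0.01), which had a median of 37.1% and passed 50% for 26 members. With the GC trend removed and library 6 left out together, a setting chosen after seeing the data, the log2 fold change of Rpl22l1 was 1.11 with an adjusted p of 0.0126 in edgeR's test.

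**Figure D5:**
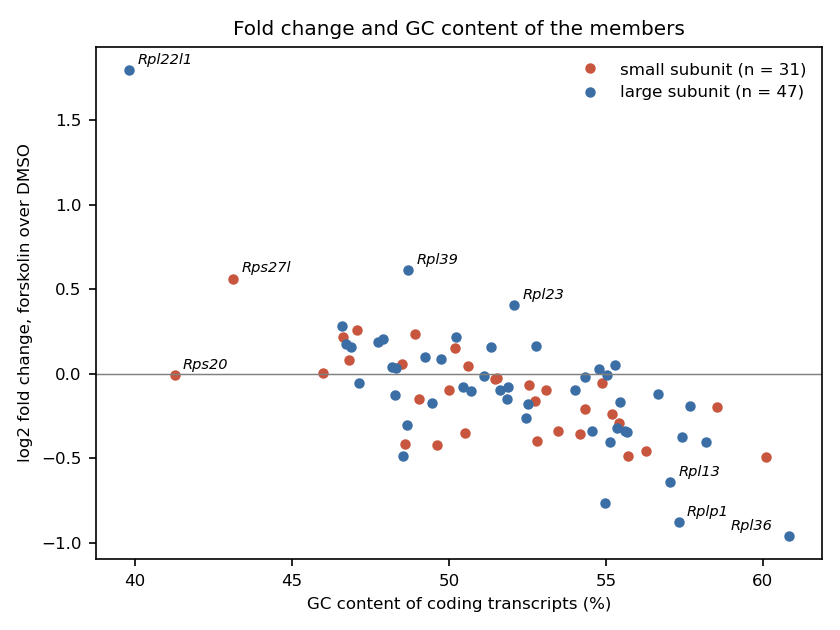
Log2 fold change (forskolin over DMSO) of the 78 members against the median GC content of their coding transcripts in percent; colours mark the subunit. Values fall from low to high GC, Rpl22l1 stands at 39.8% GC and 1.79, and Rps20 and Rps27l, next to it in GC content, stand at -0.01 and 0.56. The median annotated transcript length is 3706 bases for Rps20 and 538.5 for Rpl22l1.

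The members are spread over 19 chromosomes, 4 of them on the X. Many ribosomal protein genes carry small nucleolar RNAs, guides of ribosomal RNA modification, in their introns. By annotation, 29 members (37.2%) had at least 1 snoRNA gene inside their span on the same strand, against 1.62% of 13825 tested protein-coding genes, 56 snoRNA genes in all with 5 in Rpl4. The median log2 fold change was -0.10 for the hosts and -0.10 for the other 49 members. Rpl22l1 holds none.

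The genes whose levels over the 6 libraries were most like those of Rpl22l1 were Eci2, Rgs2, Arl4d, Eif3m and Btg1, with Pearson correlations of log2 CPM from 0.98 to 0.99 among the 8513 genes whose mean count reached 500. This is a description over 6 libraries that fall into 2 groups, and carries no p. Rgs2, a regulator of G protein signalling, held 42.7, 45.8 and 43.4 CPM with DMSO and 144, 133 and 121 CPM with forskolin, whereas Eci2, a fatty acid oxidation enzyme, went only from 34.5, 34.5 and 34.6 CPM to 37.7, 36.8 and 37.4 CPM. Among the members, Rpl23 and Rpl39 were most like it, at 0.90 and 0.89. The levels of Rpl22 had a correlation of 0.29 with those of Rpl22l1.

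Some ribosomal proteins that the symbol rule leaves out gave values in the same range. Rps3a1 had a log2 fold change of 0.26, Gnb2l1 (Rack1, the scaffold on the small subunit) -0.14 and Fau -0.56; none of these 3 was called. Of the 76 tested mitochondrial ribosomal proteins, which serve the separate ribosome of mitochondria, 0 were called higher and 1 lower (0.172% and 1.34% of all genes were), with a median of -0.18. All treated libraries lay above all controls for 7 and below them for 26 (10.3% and 16.2% of all tested genes). Without library 6, 1 was called higher and 21 lower (16.5% and 17.1% of all genes). The 1 called with all libraries was Mrps34, with 21.0, 21.8 and 19.2 CPM against 11.98, 10.3 and 12.5 CPM (log2 fold change -0.84 ± 0.14 SE, adjusted p = 0.0445 in edgeR's test).

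In edgeR's test with all libraries, the other lists of the ribosome pathway held no call. None of 18 other 5′TOP mRNAs was called (median log2 fold change 0.03); among them Eef2, the elongation factor, held 1172, 1258 and 1096 CPM against 856, 882 and 774 CPM without overlap, and Eif3e, an initiation factor subunit, 33.0, 55.2 and 51.6 CPM against 70.0, 77.6 and 71.8 CPM. None of 28 ribosome biogenesis factors was called (median -0.02); Bop1, needed for the large subunit, came closest with 66.3, 65.3 and 60.9 CPM against 44.4, 48.6 and 43.0 CPM (log2 fold change -0.50, adjusted p = 0.0688 in edgeR's test). None of 15 genes of RNA polymerase I, which makes ribosomal RNA, was called (median -0.02), nor any of 18 genes of translation control by mTOR (median -0.08). The kinase Mtor itself held 171, 177 and 169 CPM against 135, 129 and 159 CPM, and Larp1 held 83.9, 88.1 and 92.3 CPM against 69.6, 76.6 and 82.7 CPM, both without overlap and neither called. Without library 6, where 16.5% of all genes were called higher and 17.1% lower, the calls were 2 higher and 4 lower for the other 5′TOP mRNAs, 3 and 4 for biogenesis, 1 and 1 for RNA polymerase I, and 1 and 6 for mTOR.

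None of the 78 members is among the 132 genes of the authors' deposited table for this comparison.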

How the data were processed

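RNA-seq counts of 3 DMSO and 3 forskolin libraries were analysed. The authors deposited whole-number counts per gene symbol, 1 column per library; per the submitters' processing notes the tools were Salmon and DESeq and the build GRCm38, with the annotation and strand setting not given in the sources used here. If Salmon made the counts, reads that fit several genes were shared out by estimate before rounding. A second deposited table by the authors holds mean normalised counts (a signal), log2 fold changes with their errors, test scores and p-values, per the file headers; it was used only to look up the members.

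In R 4.3.3, genes were kept with filterByExpr (minimum count 10, minimum total 15), scaled with TMM, and tested with edgeR 4.0.16 (glmQLFit, glmQLFTest) by group over all 6 libraries, with Benjamini-Hochberg adjustment over all 16233 genes and a threshold of 0.05. Alternatives were DESeq2 1.42.0, limma 3.58.1 voom with library quality weights, other scalings and count filters, removal of GC or length trends (lowess, span 0.3), and leaving out each library. DESeq2 left 1287 adjusted p-values as NA. Paralogue ratios were tested with exact two-sided permutation. The fitting was tested on simulated data.

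Length and GC content were medians over GENCODE M21 transcripts matched by symbol (97.1% of tested genes and all members). Protein-coding transcripts were used where a gene had any, as for all members, and its other transcripts where it had none. Promoter windows came from RefSeq, where 58 members had an entry. Depth was 28342764 to 47548379 counts per library; counting error adds most for members with few counts, such as Rpl22l1 with DMSO.

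The members, gene lists and tests were chosen with earlier results of these data known. Members were named as paralogue pairs, as called genes, as the 5 highest and 5 lowest log2 fold changes at a mean count of at least 500, as the 5 highest and 5 lowest levels, and for roles (stalk, receptor, ubiquitin fusion, S6 kinase substrate, X-linked, p53 checkpoint). The values of 1 listed gene are not reported here.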

Additional observations from a re-analysis of the deposited data

How the results depend on the processing

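With 3 libraries per group, library 6 apart from the other treated libraries and no batch in the labels, differences of the size most members showed were mostly not called; levels of members that share sequence with pseudogenes also depend on how shared reads were counted. No paired analysis was possible because the library numbers run from 1 to 6 across both groups and none is shared.

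The number of members called higher was 3 with DESeq2, 4 with quality weights and 0 with the GC trend removed, where 0 of all genes were called. With DESeq2 and quality weights these were 3.85% and 5.13% of the members, beside 4.9% and 21% of all genes. The number called lower was 5 with DESeq2 and 15 with quality weights. These were 6.41% and 19.2% of the members, beside 6.03% and 20.9% of all genes. With the GC trend removed and library 6 left out together, a setting chosen after seeing the data, 2 were called higher (Rpl22l1 and Rpl23) and 6 lower, 2.56% and 7.69% of the members beside 15.8% and 16.1% of all genes. Leaving out 1 library at a time gave 0 to 4 higher and 0 to 12 lower, the highest values without library 6. There, 5.13% of the members were called higher and 15.4% lower, beside 16.5% and 17.1% of all genes. Without any other single library edgeR called 0 of all genes, with 1945 to 3216 at an unadjusted p under 0.05. Rpl22l1 kept its direction under every setting run, with a log2 fold change of 1.75 to 1.89 when 1 library was left out and 1.26 with the GC trend removed, where the difference in its ratio to Rpl22 was 1.21; the cause was not tested. The median of the members was -0.20 with library size alone, where the median of all genes was -0.09. The difference in their share of counts was -0.0268 percentage points without mitochondrially encoded genes.

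Over all members, signs turned for 16 of 78 with the GC trend removed (the largest from -0.20 to 0.19, Rps19), 13 without library 6 and 12 without library 2, and for 0 to 10 under each other planned setting. The values of the named members that turned follow. With quality weights, Rpl22 came to -0.041, Rps27 to -0.040, Rpl4 to -0.018, Rps4x to -0.023 and Rpl11 to -0.039. With library size alone, Rpl22 came to -0.0041, Rps27 to -0.051, Rpl10 to -0.021, Rpl4 to -0.062, Rps4x to -0.050 and Rpl11 to -0.072. With the GC trend removed, Rpl4 came to -0.040, Rps4x to -0.012, Rpl34 to 0.12, Rpl29 to 0.13, Rpl13a to 0.037 and the ratio of Rpl36al to Rpl36a to 0.072; with the length trend removed, Rpl34 came to 0.015. With 1 library left out, the log2 fold change ranged from -0.048 to 0.19 for Rpl22, -0.021 to 0.22 for Rps27, -0.025 to 0.17 for Rpl10, -0.038 to 0.10 for Rpl4, -0.050 to 0.15 for Rps4x, -0.044 to 0.15 for Rpl11, -0.21 to 0.015 for Rpl3, -0.11 to 0.20 for Rpl34 and -0.15 to 0.013 for Rpl7l1.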
